A study of Mus musculus with 6 samples.

Results

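The genes described here are 43 interferon-stimulated and antigen presentation genes of mouse, out of 22375 rows of the deposited table of FPKM values. They were chosen by name, with earlier results of these data known. Of these, 42 were found by their symbol. Ddx58 was found through its Ensembl identifier (ENSMUSG00000040296), which the table lists under the newer symbol Rigi. C2C12 cells, a mouse line of myoblasts that can fuse into muscle fibers, were left unstretched (CON, 3 libraries) or were stretched cyclically at 15% elongation for 4 h (4H, 3 libraries) on elastic plates coated with poly-lysine. Both groups were grown in medium with fetal bovine serum, carry no genetic change and received no interferon or other agent according to the labels and the methods. Poly(A) RNA was sequenced as paired ends. The labels call the 3 libraries of a group replicates but do not say that they came from separate cultures, so the p-values measure the spread between these libraries only, which may be technical.

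Type I interferons are cytokines that nearly all cells can release when they sense viral nucleic acid. They bind the receptor made of IFNAR1 and IFNAR2, whose kinases JAK1 and TYK2 phosphorylate STAT proteins, and these join IRF9 to form a complex that binds a promoter element called the ISRE and switches on interferon-stimulated genes. Many of these genes are also transcribed at a low level without infection. The MHC class I pathway, which is itself raised by interferon, cuts proteins in the proteasome, moves the peptides into the endoplasmic reticulum through TAP, loads them onto a class I heavy chain with beta-2-microglobulin and shows them on the cell surface.

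FPKM is a fragment level per kilobase of transcript scaled to the number of mapped fragments, so levels of different genes can be set side by side. Values summed to between 395790 and 397260 FPKM per library in the CON group and to between 385146 and 387516 FPKM in the 4H group. The numbers of fragments behind these values are not in FPKM, so the depth is unknown and no counting error can be given. Of 7 markers of myoblasts, 5 were higher in 4H (Myod1, Des, Cdh15, Chrna1 and Msc), Myf5 was lower and Pax7 lay below the filter, a mean of 0.5 FPKM over the 6 libraries. Their summed level was 121 to 123 FPKM in CON and 163 to 171 FPKM in 4H. Of 9 immune cell markers 6 lay below the filter, and of these Ptprc and Adgre1 were at 0 in every library. Of the other 3, Cd68 and Cd14 were higher in 4H. Csf1r was at 0, 0 and 0.0272 FPKM in the CON libraries and 1.48, 0.966 and 0.792 FPKM in the 4H libraries, so it passed the filter only through the group where it was high, and its call as higher follows from that. The summed level of the 9 was 17.2 to 20.4 FPKM in CON and 32.3 to 36.0 FPKM in 4H. Their part in the results below was not tested. The 4 endothelial markers summed to at most 0.387 FPKM in any library.

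After 4 h of stretch, most of these genes were lower. All 43 members passed the filter and were tested among 11593 genes. Of these members, 30 (69.8%) fell at an adjusted p of at most 0.05 and 0 rose (limma on log2(FPKM + 0.5), Benjamini-Hochberg adjustment over all genes tested). Of the other 13, 11 had a negative log2 fold change and 2 a positive one. Among all genes tested, 24.1% were called lower and 22.6% higher by the same rule. The median log2 fold change of the members was -0.40, beside -0.01 for all genes tested. In 28 members every 4H library lay below every CON library, and in 0 did every 4H library lie above. Over all genes tested these shares were 29.2% and 27.5%. The list was chosen with earlier results of these data known, so its contrast with all genes is a description and not a test. The changes were mostly modest. The stricter criteria, called differential expression below, also asked for a log2 fold change of 1 or more in size, and by these 1 member (Isg15) was called lower and 0 higher, against 1.28% and 2.61% of all genes tested. With 3 libraries against 3, an exact permutation test of a single gene cannot give a p below 0.1. In bulk RNA, fewer cells that express a gene and less RNA of that gene per cell cannot be told apart.

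**Figure D1:**
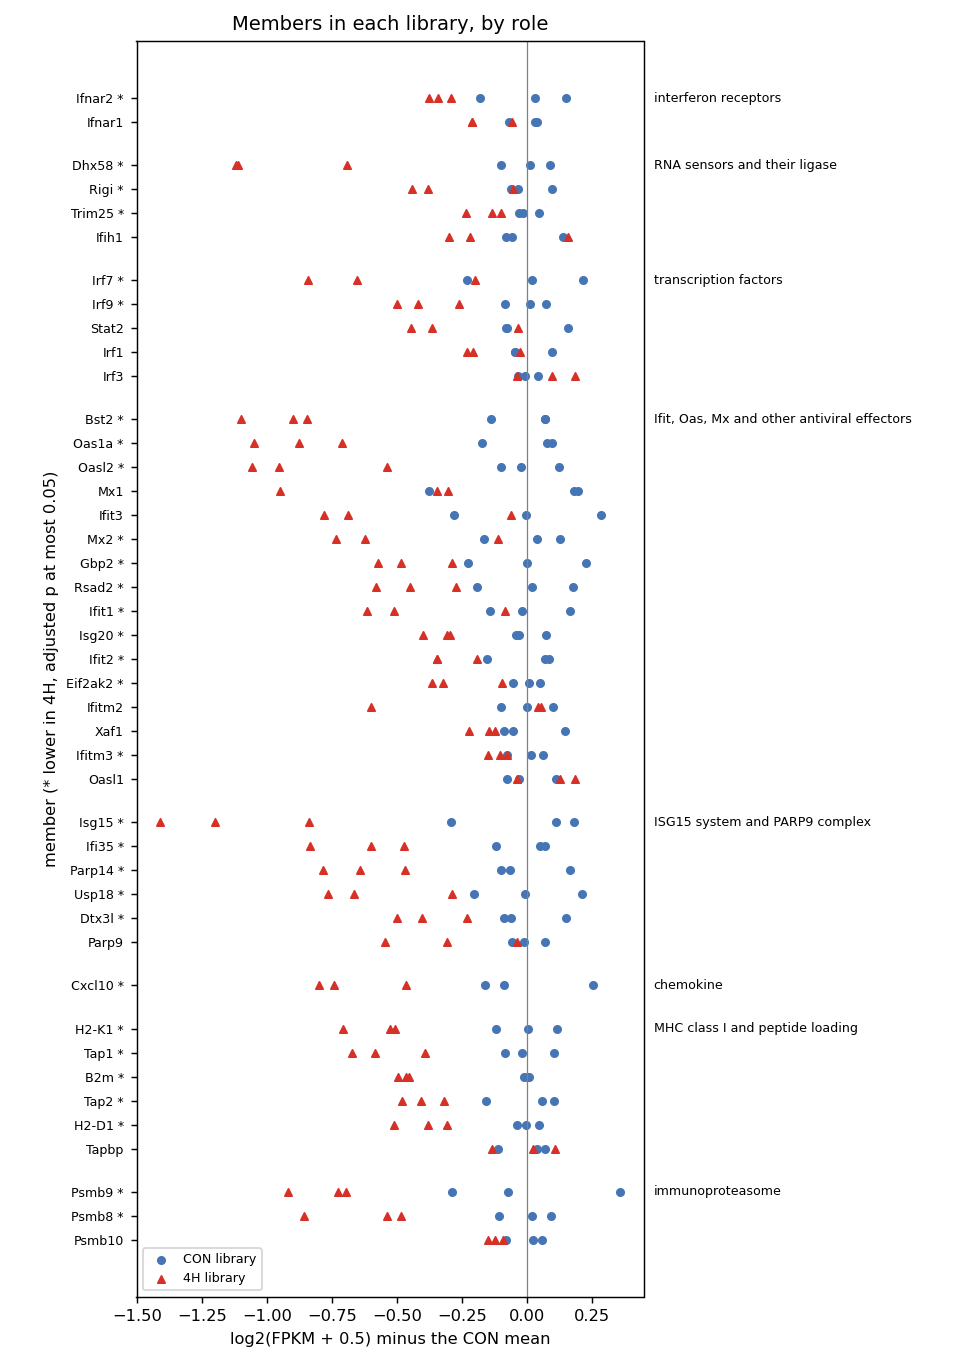
Each row is a member, grouped by role, and each point is a library, plotted as log2(FPKM + 0.5) minus the mean of the 3 CON libraries on the horizontal axis. Circles are CON and triangles 4H, and an asterisk marks the 30 members that fell at an adjusted p of at most 0.05. The triangles lie to the left of the circles without overlap in 28 of 43 rows.

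The ISRE was looked for in the promoters, because it is the element through which many of these genes answer to the complex that contains STAT2 and IRF9. The windows come from RefSeq (GRCm38.p6, the assembly that mm10 also denotes), and each runs from 250 bases before to 50 bases after a transcript start. The letters searched were GAAANNGAAA and, for the other strand, TTTCNNTTTC, where overlapping matches were allowed. Of the 43 members, 36 had a window, and 15 of these held the letters in at least 1 window (41.7%), beside 3.44% of all 32851 windows and 3.99% of all genes with a window. The 15 are Isg15, Bst2, Oas1a, Rsad2, Ifit1, Ifit3, Gbp2, Cxcl10, B2m, Eif2ak2, Rigi, Ifih1, Stat2, Ifitm2 and Ifitm3. The stretches below, which lie before the transcript start, show the element in 5 members that fell and, for contrast, in Ifit3 and Stat2, which did not pass the test. Each is printed 5′ to 3′ on the gene's strand, with the matched letters in capitals and 30 bases on either side where the window reaches that far.

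Isg15, chr4:156200845-156200926 (- strand): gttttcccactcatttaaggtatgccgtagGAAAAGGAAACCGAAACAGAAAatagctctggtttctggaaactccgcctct
Bst2, chr8:71537557-71537632 (- strand): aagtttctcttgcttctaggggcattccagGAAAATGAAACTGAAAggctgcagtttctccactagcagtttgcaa
Rsad2, chr12:26456533-26456602 (- strand): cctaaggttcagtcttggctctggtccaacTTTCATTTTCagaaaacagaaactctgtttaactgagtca
Cxcl10, chr5:92349063-92349132 (- strand): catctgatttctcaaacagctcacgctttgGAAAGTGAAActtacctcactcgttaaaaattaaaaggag
B2m, chr2:122147518-122147587 (+ strand): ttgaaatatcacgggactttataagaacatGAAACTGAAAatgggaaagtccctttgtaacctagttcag
Ifit3, chr19:34583343-34583446 (+ strand): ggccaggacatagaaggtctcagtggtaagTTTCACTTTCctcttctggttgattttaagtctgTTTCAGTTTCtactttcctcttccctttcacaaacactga
Stat2, chr10:128270248-128270315 (+ strand): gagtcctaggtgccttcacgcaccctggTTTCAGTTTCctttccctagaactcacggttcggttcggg

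Isg15 held 3 overlapping matches and Bst2 held 2. Ifit3 held 2 separate ones. Of the 15 members with the letters in a window, 11 fell, with a median log2 fold change of -0.43. Of the 21 members whose windows did not hold them, 14 fell, with a median of -0.34. Among 323 tested genes outside the list with the letters in a window, 31.6% were called lower and their median log2 fold change was -0.07, while 24.0% of the 8623 tested genes without them were called lower, with a median of -0.01. A match is a description of the sequence and not evidence of binding. The search took only exact letters within these windows, so a gene without a match may still have an ISRE.

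The largest change on the log2 scale was that of Isg15 (ENSMUSG00000035692, chr4:156199424-156200818 in GENCODE M21, GRCm38), which encodes a ubiquitin-like protein that is attached to other proteins after interferon. It was listed at 104, 138 and 145 FPKM in the CON libraries and 71.2, 55.2 and 47.6 FPKM in the 4H libraries, with libraries in the order of their replicate numbers here and below. These numbers are those of the sample descriptions, while the titles number the same 4H libraries 1, 3 and 4. The groups did not overlap, and the 4H mean was 45.0% of the CON mean (log2 fold change -1.15 with a standard error of 0.16, adjusted p = 0.000585 in limma). Usp18, the protease that removes ISG15 and also restrains signaling at IFNAR2, was at 62.6, 83.5 and 71.8 FPKM in the CON libraries and 59.0, 45.3 and 42.2 FPKM in the 4H libraries. It fell as well (log2 fold change -0.57 with a standard error of 0.14, adjusted p = 0.00923), and its groups came close, with 4H replicate 1 just below CON replicate 1.

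Parp9, Dtx3l and Parp14 encode ADP-ribosyltransferases and a ubiquitin ligase that act together in the interferon response. Parp14 was at 11.2, 13.2 and 10.9 FPKM in the CON libraries and 8.33, 6.58 and 7.32 FPKM in the 4H libraries and fell to 63.1% of the CON mean (adjusted p = 0.00122 in limma). Dtx3l fell to 76.1% (adjusted p = 0.00890), with no overlap between the groups. Parp9, which lies head to head with Dtx3l and overlaps its exons on the other strand, was at 21.2, 22.5 and 20.5 FPKM in the CON libraries and 20.8, 17.2 and 14.5 FPKM in the 4H libraries. Its 4H replicate 1 lay within the CON range, and it did not pass the test (log2 fold change -0.30, adjusted p = 0.0621), but did without that library (adjusted p = 0.00446). Ifi35, whose protein binds NMI, fell from 44.6 ± 3.16 to 28.6 ± 3.61 FPKM (SD, n = 3 each, adjusted p = 0.000694 in limma), and Nmi itself, which is outside the list, fell from 5.82 ± 0.619 to 3.18 ± 0.361 FPKM (adjusted p = 0.000514).

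**Figure D2:**
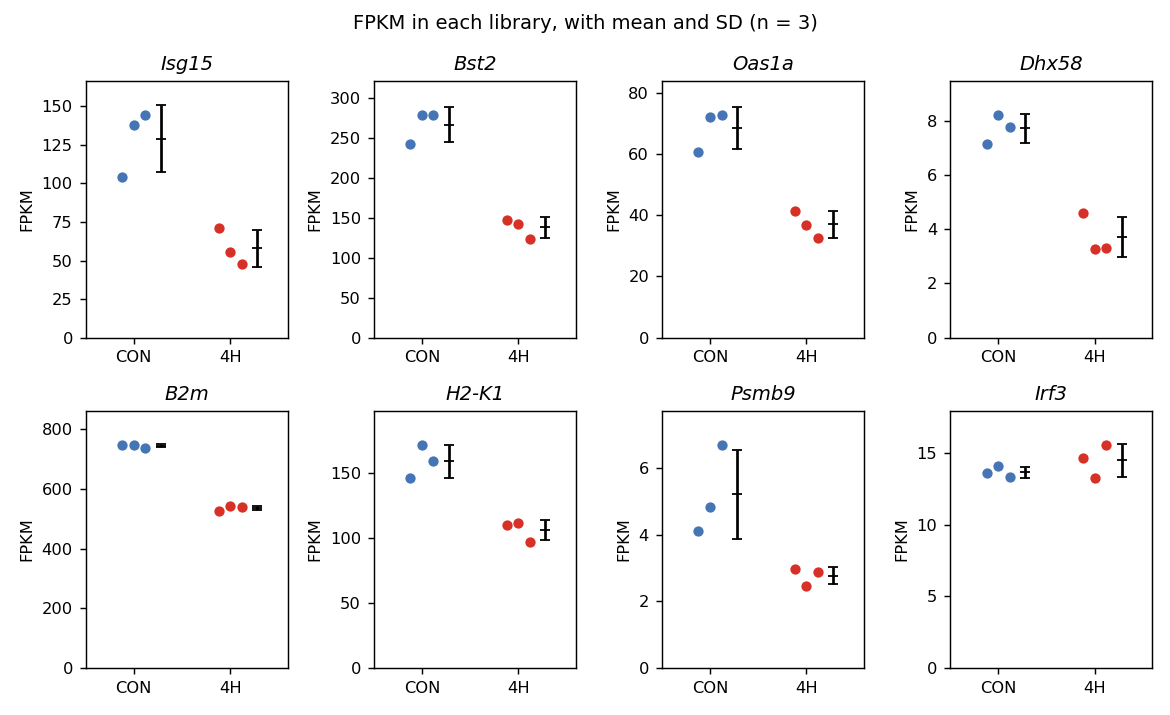
FPKM of 8 members in each library, with points for single libraries and a bar for the mean and SD of the 3 libraries of each group; the vertical axes start at 0. In Isg15, Bst2, Oas1a, Dhx58, B2m, H2-K1 and Psmb9 every 4H library is below every CON library, while in Irf3 the groups overlap.

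Of the 16 antiviral effectors, 11 fell and 0 rose, beside 24.1% and 22.6% of all genes tested. Bst2, or tetherin, which holds budding virus particles at the cell surface, was at 242, 279 and 279 FPKM in the CON libraries and 148, 142 and 124 FPKM in the 4H libraries. This is a fall to 51.7% of the CON mean with no overlap (log2 fold change -0.95 with a standard error of 0.08, adjusted p = 2.92e-05 in limma), close to the threshold for differential expression. Ifitm3, which blocks virus entry from endosomes, was the most abundant of the 16, at 352, 388 and 375 FPKM in the CON libraries and 346, 352 and 334 FPKM in the 4H libraries, and it fell only to 92.5% (adjusted p = 0.0483). This call was lost without any library except CON replicate 1 (adjusted p from 0.0575 without 4H replicate 2 to 0.141 without 4H replicate 3). It was also lost without the filter (0.0898), without the trend (0.129) and rescaled to TPM (0.159), and under quantile normalization its log2 fold change was -0.00 (adjusted p = 0.960). Its neighbor Ifitm2 ranged from 36.5 to 57.8 FPKM in 4H and overlapped with CON (adjusted p = 0.428), and 42.0% of its 75-base stretches also occur in another gene, mostly Gm45717, so its level is uncertain.

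The oligoadenylate synthetases bind double-stranded RNA and make the messenger that activates RNase L, and the Oasl genes encode their relatives. Oas1a was at 60.5, 71.9 and 72.9 FPKM in the CON libraries and 41.5, 36.9 and 32.6 FPKM in the 4H libraries. Oasl2 was at 55.7, 65.2 and 58.8 FPKM in the CON libraries and 41.0, 30.6 and 28.5 FPKM in the 4H libraries. Both fell without overlap, to 54.1% and 55.7% of the CON mean (adjusted p = 0.000165 and 0.000796 in limma). Oas1a shares 47.6% of its 75-base stretches with other genes, mostly Oas1g, so how reads were split between them is uncertain, and Oas1g fell too (log2 fold change -0.98, adjusted p = 0.000123). Oasl1, which lies beside Oasl2, was at 4.71, 5.24 and 4.54 FPKM in the CON libraries and 5.31, 5.55 and 4.68 FPKM in the 4H libraries. It is 1 of the 2 members with a positive log2 fold change (0.09, adjusted p = 0.434), and its groups overlapped.

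The Ifit genes encode proteins that bind foreign RNA and block its translation. Ifit1 was at 35.7, 44.2 and 38.8 FPKM in the CON libraries and 37.2, 25.5 and 27.5 FPKM in the 4H libraries. Ifit2 was at 18.9, 22.1 and 22.4 FPKM in the CON libraries and 18.4, 16.5 and 16.5 FPKM in the 4H libraries. Ifit3 was at 36.9, 54.8 and 44.8 FPKM in the CON libraries and 42.97, 25.9 and 27.7 FPKM in the 4H libraries. In all 3 genes 4H replicate 1 was the highest of the 4H libraries, and in Ifit1 and Ifit3 it lay above CON replicate 1. Ifit2 fell without overlap (log2 fold change -0.30, adjusted p = 0.0132 in limma), Ifit1 passed the test with overlapping groups (log2 fold change -0.40, adjusted p = 0.0390), and Ifit3 did not pass (-0.51, adjusted p = 0.0669). Ifit3 shares 41.1% of its 75-base stretches with other genes, mostly Ifit3b. Ifit3b did not pass either (log2 fold change -0.14, adjusted p = 0.581 in limma), and its groups overlapped. The call of Ifit1 was lost without CON replicate 2 or 3 or 4H replicate 2 or 3 (adjusted p from 0.0828 to 0.122), and with all libraries kept it was lost without the filter (0.0830), without the trend (0.0755), rescaled to TPM (0.0604) and under quantile normalization (0.0584), while Ifit3 passed without 4H replicate 1 (0.00514) or CON replicate 1 (0.0421).

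Among the remaining effectors, Rsad2 (viperin, an enzyme that makes a chain-terminating nucleotide) fell to 73.2% of the CON mean, the exonuclease gene Isg20 to 78.0%, the guanylate-binding protein gene Gbp2 to 70.8% and Eif2ak2, the gene of the kinase PKR that halts translation, to 83.5%. Their groups did not overlap, and their adjusted p ranged from 0.00327 to 0.0191 in limma. The call of Gbp2 was lost without CON replicate 2 or 3 or 4H replicate 2 or 3 (0.0521 to 0.0614), and that of Eif2ak2 without CON replicate 2 or 4H replicate 2 or 3 (0.0516 to 0.0540). The dynamin-like GTPase gene Mx2 fell to 71.2% with an overlap of 4H replicate 1 with the CON libraries (adjusted p = 0.0323), and lost the call without CON replicate 2 or 3 or 4H replicate 2 or 3 (0.0863 to 0.0995), and with all libraries kept without the filter (0.0705) and without the trend (0.0603). Mx1 was low, at 0.962, 1.65 and 1.67 FPKM in the CON libraries and 0.993, 0.481 and 1.03 FPKM in the 4H libraries, and did not pass (adjusted p = 0.0856). Xaf1 was lower in every 4H library, between 47.2 and 50.8 FPKM against 51.9 to 61.2 FPKM in CON, but did not pass either (adjusted p = 0.0624). Without CON replicate 1, Mx1 (0.0348) and Xaf1 (0.0388) passed, and Mx1 also passed under quantile normalization (0.0433). Cxcl10, a chemokine that draws T cells, was at 11.5, 14.7 and 10.9 FPKM in the CON libraries and 8.74, 6.82 and 7.12 FPKM in the 4H libraries and fell to 61.2% of the CON mean with no overlap (adjusted p = 0.00304).

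Of the 3 RNA sensors and the ligase of RIG-I, 3 genes fell, beside 24.1% of all genes tested. Dhx58 (LGP2), which regulates the other 2 sensors and has no signaling domain of its own, was at 7.15, 8.23 and 7.78 FPKM in the CON libraries and 4.58, 3.28 and 3.30 FPKM in the 4H libraries. The 4H libraries were well below all CON libraries, with a mean of 48.2% of the CON mean (log2 fold change -0.97 with a standard error of 0.12, adjusted p = 0.000361 in limma), and the annotation places an antisense gene, Dhx58os, over its exons. Rigi (RIG-I, the sensor of RNA with a triphosphate end) was at 43.6, 48.7 and 44.4 FPKM in the CON libraries and 43.9, 34.8 and 33.3 FPKM in the 4H libraries. Ifih1 (MDA5, the sensor of long double-stranded RNA) was at 11.7, 13.7 and 11.9 FPKM in the CON libraries and 13.9, 10.6 and 9.98 FPKM in the 4H libraries. In both, 4H replicate 1 lay within or above the CON range, and Rigi passed the test (log2 fold change -0.29, adjusted p = 0.0382) while Ifih1 did not (log2 fold change -0.12, adjusted p = 0.439); the difference between these sensors was not tested. Trim25, a ubiquitin ligase that activates RIG-I, was at 18.3, 19.3 and 18.4 FPKM in the CON libraries and 17.3, 15.8 and 16.96 FPKM in the 4H libraries and fell slightly (log2 fold change -0.16, adjusted p = 0.0361). The calls of Rigi and Trim25 were lost without any library except 4H replicate 1 (adjusted p from 0.0595 to 0.117 and from 0.0584 to 0.111), and Ifih1 passed without 4H replicate 1 (0.0380). With all libraries kept, Rigi lost the call without the filter (0.0788), without the trend (0.0752), rescaled to TPM (0.0680) and under quantile normalization (0.0619), and Trim25 lost it rescaled to TPM (0.0959).

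Of the 2 receptor genes 1 fell, and of the 5 transcription factors 2 fell, with median log2 fold changes of -0.25 and -0.28. At these sizes the counts are not far from the 24.1% of all genes called lower. Ifnar1 was at 20.1, 20.0 and 18.6 FPKM in the CON libraries and 18.7, 16.8 and 16.8 FPKM in the 4H libraries and did not pass (log2 fold change -0.16, adjusted p = 0.0534), with 4H replicate 1 inside the CON range. It passed without 4H replicate 1 (0.0188) or CON replicate 3 (0.0469). Ifnar2 was at 21.4, 19.6 and 16.9 FPKM in the CON libraries and 14.7, 15.0 and 15.6 FPKM in the 4H libraries, fell to 78.3% of the CON mean (adjusted p = 0.00989) and did not overlap. It shares exons with the readthrough gene Gm21970 on its strand.

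Irf9, the DNA-binding part of the ISRE complex, was at 36.8, 38.5 and 34.4 FPKM in the CON libraries and 30.4, 27.2 and 25.7 FPKM in the 4H libraries and fell without overlap (log2 fold change -0.39 with a standard error of 0.07, adjusted p = 0.00187 in limma). Stat2, its partner, was at 18.5, 21.9 and 18.5 FPKM in the CON libraries and 19.1, 14.2 and 15.1 FPKM in the 4H libraries, where 4H replicate 1 lay within the CON range and the other 4H libraries below it (adjusted p = 0.0699). Irf7, which is itself interferon-induced and drives the interferon genes, was at 22.5, 30.8 and 26.8 FPKM in the CON libraries and 23.02, 16.7 and 14.5 FPKM in the 4H libraries. It fell to 67.7% of the CON mean (adjusted p = 0.0242), with 4H replicate 1 above CON replicate 1, and the call was lost without CON replicate 2 or 3 or 4H replicate 2 or 3 (0.0651 to 0.0810), and with all libraries kept it was lost without the filter (0.0575) and without the trend (0.0512). Irf1, at 10.7, 11.8 and 10.7 FPKM in the CON libraries and 9.48, 10.8 and 9.33 FPKM in the 4H libraries, did not pass (log2 fold change -0.16, adjusted p = 0.123), but did without 4H replicate 2 (0.0422), and Stat2 passed without 4H replicate 1 (0.00653). Irf3, which is made constantly and activated by phosphorylation after sensing, was at 13.6, 14.1 and 13.3 FPKM in the CON libraries and 14.6, 13.3 and 15.6 FPKM in the 4H libraries, and it is the other member with a positive log2 fold change (0.08, adjusted p = 0.340).

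Of the 6 members of class I presentation and peptide loading 5 fell, and of the 3 immunoproteasome subunits 2 fell, beside 24.1% of all genes tested. B2m, the gene of beta-2-microglobulin (chr2:122147686-122153083), was the most abundant member, at 746, 748 and 738 FPKM in the CON libraries and 527, 543 and 538 FPKM in the 4H libraries. It fell to 72.0% of the CON mean, and it had the smallest standard error of the 43 members (log2 fold change -0.47 with a standard error of 0.02, adjusted p = 1.96e-06 in limma). Under quantile normalization its log2 fold change was -0.30. H2-K1, a classical class I heavy chain, was at 147, 172 and 159.6 FPKM in the CON libraries and 110.2, 112 and 97.1 FPKM in the 4H libraries and fell to 66.7% (adjusted p = 0.000267). H2-D1, the other classical heavy chain of the list, was at 25.9, 25.3 and 26.9 FPKM in the CON libraries and 19.9, 20.9 and 18.1 FPKM in the 4H libraries and fell to 75.4% (adjusted p = 0.000748). Neither overlapped. Class I heavy chains are polymorphic and resemble each other, so their levels against a single reference genome are uncertain. The share of 75-base stretches found in other genes was 3.10% for H2-K1 and 5.40% for H2-D1. This share was read within the reference, so it does not address polymorphism.

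Tap1 and Tap2 encode the subunits of the peptide transporter. Tap1 was at 16.3, 18.7 and 17.1 FPKM in the CON libraries and 13.1, 11.4 and 10.7 FPKM in the 4H libraries. Tap2 was at 11, 13.3 and 12.8 FPKM in the CON libraries and 9.78, 9.16 and 8.70 FPKM in the 4H libraries. Both fell without overlap, with log2 fold changes of -0.55 and -0.40 (adjusted p = 0.000875 and 0.00415 in limma). Tapbp, or tapasin, which bridges TAP and the class I chain, was at 54.9, 62.3 and 60.9 FPKM in the CON libraries and 63.8, 60.3 and 54.0 FPKM in the 4H libraries. Its means were equal to 3 digits (59.4 ± 3.95 and 59.4 ± 5.01 FPKM, SD, n = 3 each, adjusted p = 0.989), and it is the member of this group of 6 that did not fall.

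The immunoproteasome subunits replace the catalytic subunits of the standard proteasome and favor peptides that fit class I. Psmb8 was at 11.1, 12.8 and 12.2 FPKM in the CON libraries and 8.44, 8.11 and 6.40 FPKM in the 4H libraries. Psmb9 was at 4.11, 4.85 and 6.71 FPKM in the CON libraries and 2.97, 2.47 and 2.89 FPKM in the 4H libraries. Both fell, with 4H means of 63.6% and 53.2% of CON (adjusted p = 0.00152 and 0.00444 in limma). Psmb10, at 7.89, 8.08 and 7.30 FPKM in the CON libraries and 7.07, 6.92 and 7.23 FPKM in the 4H libraries, was lower in every 4H library by a small margin and did not pass (log2 fold change -0.12, adjusted p = 0.144). The constitutive subunits that they replace, Psmb5, Psmb6 and Psmb7, did not pass either, with log2 fold changes of -0.06, -0.02 and 0.07 (adjusted p = 0.358, 0.653 and 0.160); that of Psmb6 was 0.01 in libraries rescaled to TPM and 0.02 under quantile normalization, and Psmb7 rose in both (adjusted p = 0.0416 and 0.0382). The constitutive subunits were the more abundant ones per length, as Psmb6 was at 129.8 ± 4.95 FPKM in CON while Psmb9 was at 5.22 ± 1.34 FPKM (SD, n = 3).

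Of the 8 members on chromosome 17, 7 lie in the MHC region between Tapbp (chr17:33915899-33929292) and H2-D1 (chr17:35262730-35267499). Psmb9, Tap1, Psmb8 and Tap2 stand next to each other there, from 34181987 to 34216321. The exons of Psmb9 and Tap1 overlap on opposite strands at their shared start region, so reads of one could enter the other under counting without strand. Of the 8, 7 fell, beside 24.1% of all genes tested. All 8 are also counted in the groups above.

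**Figure D3:**
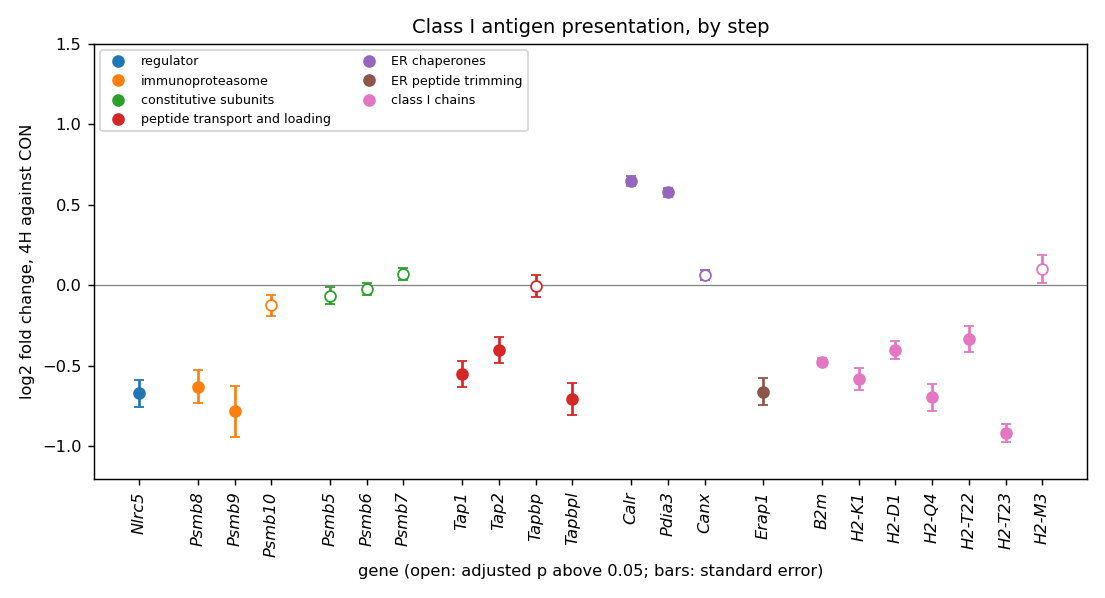
Log2 fold change of class I pathway genes between 4H and CON on the vertical axis, with the standard error, grouped by step; open circles did not pass an adjusted p of 0.05. Psmb8, Psmb9, Tap1, Tap2 and most class I chains lie between -0.33 and -0.92, while Calr and Pdia3 lie at 0.65 and 0.58.

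The other genes of the pathway were a list of 81, of which 69 passed the filter. Of these, 32 fell (46.4%, beside 24.1% of all genes tested) and 8 rose, and the median log2 fold change was -0.22. Of the 33 other interferon-stimulated genes tested, 21 fell and 2 rose, with a median of -0.39. Ifi44 fell most, from 81.6 ± 8.63 to 34.7 ± 8.33 FPKM (SD, n = 3 libraries each; log2 fold change -1.24 with a standard error of 0.15, adjusted p = 0.000315 in limma), and was the only gene of the 69 called lower by the criteria for differential expression. Ifitm1, which belongs to the same family as Ifitm2 and Ifitm3, was at 1.58, 1.28 and 1.31 FPKM in the CON libraries and 5.68, 4.14 and 4.03 FPKM in the 4H libraries and rose (log2 fold change 1.43 with a standard error of 0.14, adjusted p = 8.39e-05), the only one of the 69 called higher by those criteria. Ifi27 rose from 66.7 ± 8.21 to 126 ± 12.9 FPKM (adjusted p = 0.000123). Ifi44 and Ifitm1 met the criteria in all 15 alternative analyses, but these counts grew without some single libraries. Oas1g (log2 fold change -1.03) and Ifi27 (1.01) also met the criteria without CON replicate 1. Oas1g (-1.11) and Zbp1 (-1.01) did so without 4H replicate 1. This gives 2 and 3 genes called lower.

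In the rest of the class I pathway, 7 of 12 genes fell and 2 rose, beside 24.1% and 22.6% of all genes tested. Nlrc5, the transactivator of class I genes, fell to 61.3% of the CON mean, from 10.9 ± 0.524 to 6.70 ± 0.738 FPKM (SD, n = 3 each, adjusted p = 0.000366 in limma). H2-T23, the mouse Qa-1 heavy chain, fell to 52.2% (adjusted p = 6.63e-06), H2-Q4 to 61.4% (adjusted p = 0.000247), and Erap1, which trims peptides in the endoplasmic reticulum, to 61.3% (adjusted p = 0.000360). Tapbpl, a relative of tapasin that edits peptides, fell to 58.6% (adjusted p = 0.000545). The 2 that rose were Calr and Pdia3, general chaperones of the endoplasmic reticulum that also serve the loading complex, with 4H means of 157% and 149.7% of CON (adjusted p = 1.91e-06 and 1.68e-06). The class II genes H2-Aa, H2-Ab1 and H2-Eb1, their chaperone Cd74 and the class II transactivator Ciita lay below the filter, with no library above 0.576 FPKM.

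Of the 7 genes that relay the signal, 1 fell and 2 rose, which at this size is not far from the 24.1% and 22.6% of all genes tested. Jak1 (log2 fold change 0.01, adjusted p = 0.796) and Tyk2 (0.12, adjusted p = 0.196) did not pass, and neither did the interferon-gamma receptor genes Ifngr1 (-0.11, adjusted p = 0.354) and Ifngr2 (0.21, adjusted p = 0.0767), although Ifngr2 passed as higher without CON replicate 1 (0.0456). The log2 fold change of Jak1 was -0.01 without CON replicate 1 or without 4H replicate 3. Jak2, a kinase of other cytokine receptors and of the interferon-gamma receptor, rose to 158% of the CON mean (adjusted p = 0.000118), and Socs1, the feedback inhibitor of the JAK kinases, rose to 156%, from 1.96, 2.58 and 1.67 to 3.02, 3.47 and 3.20 FPKM (adjusted p = 0.0110 in limma). Among 11 genes of nucleic acid sensing, 3 fell and 2 rose, near those same shares of all genes. Cgas, the sensor of cytosolic DNA, fell to 79.2% (adjusted p = 0.00453), while its downstream adaptor gene Sting1 rose to 142% (adjusted p = 0.00926).

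The interferon genes were listed at low values. Ifnb1 was listed at 0.0566, 0.390 and 0.0658 FPKM in the CON libraries and 0.0488, 0.237 and 0.449 FPKM in the 4H libraries, and Ifna4 at 0, 0.413 and 0.0370 FPKM in the CON libraries and 0, 0.0710 and 0 FPKM in the 4H libraries. Both overlapped between the groups and lay below the filter. Ifng, Ifnk, Ifnl2 and Ifnl3 were listed at 0 in every library, which at unknown depth sets no upper limit.

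**Figure D4:**
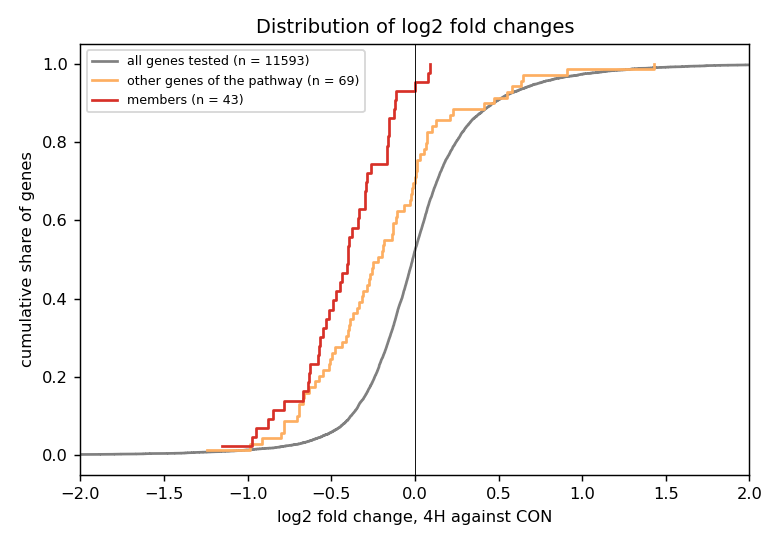
Cumulative share of genes on the vertical axis against the log2 fold change between 4H and CON, for the 43 members, the 69 other pathway genes tested and all 11593 genes tested. The members' curve lies to the left, with a median of -0.40, the pathway genes have a median of -0.22 and all genes -0.01; values beyond -2 and 2 are not drawn.

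The members' levels differed between libraries of a group. Within the 4H group, replicate 1 was the highest of the 3 in 31 of 43 members, beside 36.5% of all genes tested, and within the CON group replicate 2 was the highest in 34 of 43, beside 34.9%. Relative to the CON mean, the median log2 level of the members was -0.26, -0.45 and -0.50 in the 4H libraries and -0.09, 0.10 and -0.01 in the CON libraries, so all 4H libraries lay below all CON libraries. The same median over all genes tested lay between -0.02 and 0.00 in every library. Without 4H replicate 1, 34 members fell and 4 of them met the criteria for differential expression (Isg15, Dhx58, Oasl2 and Bst2). Without CON replicate 1, 31 fell and 3 met those criteria (Isg15, Dhx58 and Bst2).

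Of the 30 members that fell, 22 kept an adjusted p of at most 0.05 in all 15 alternative analyses, 6 of which leave out a library. The other 8 were Rigi, Trim25, Irf7, Ifit1, Ifitm3, Mx2, Gbp2 and Eif2ak2, whose values are given above. Without a library, between 22 (without CON replicate 2 or 4H replicate 3) and 34 members (without 4H replicate 1) fell, and 0 rose.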

How the data were processed

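RNA of 3 CON and 3 4H libraries of C2C12 cells was poly(A)-selected and sequenced as stranded libraries. The authors deposited a table of FPKM values per gene, made against mm10 per the submitters' processing notes. For the aligner, the counter, its strand setting and the annotation, the sources used here give no name. Groups were taken from the labels. The 11593 genes whose mean over the 6 libraries reached 0.5 FPKM were tested on log2(FPKM + 0.5) with limma 3.58.1 (trend, empirical Bayes, R 4.3.3) and Benjamini-Hochberg adjustment over all of them, so fold changes of low genes are understated. The study used a count test, which FPKM does not allow. Thresholds were an adjusted p of at most 0.05 and, for differential expression, a log2 fold change of 1 or more in size. The members, the lists and their grouping were chosen with earlier results of these data known. Values in every library were given for members past the criteria for differential expression, for the called member with the largest change in each role group, and for receptors, sensors, transcription factors, class I genes and immunoproteasome subunits. Of other pathway genes, those past these criteria, interferons, Jak1, Tyk2, Ifngr1 and Ifngr2 were named by rule, and a gene that the rule also names is not reported here. All other pathway genes, and per-library values of other members, were chosen after their values were seen. Of the listed genes, 1 was not matched. Exons that overlap and 75-base stretches shared between genes were read from GENCODE M21 (GRCm38), and promoter windows from RefSeq (GRCm38.p6). The alternatives were 2 pseudocounts, 2 filters, 3 scalings, no trend, a replicate block and leaving out each library.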

Additional observations from a re-analysis of the deposited data

How the results depend on the processing

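The number of members that fell was 30, and it lay between 25 and 30 under the 9 alternatives that keep all libraries (25 without the filter or without the trend, 26 rescaled to TPM, 28 under quantile normalization) and between 22 and 34 when a library was left out. No alternative called a member higher. The median log2 fold change of the members stayed between -0.47 and -0.35 throughout. The number that met the criteria for differential expression was 1, but 2 with a pseudocount of 0.1 (Isg15 and Dhx58) and 1 to 4 without single libraries. The log2 fold change of Tapbp was -0.00 and became 0.035 when rescaled to TPM and 0.033 under quantile normalization, and without single libraries it ranged from -0.057 to 0.065 (0.034, 0.019 and 0.065 without CON replicate 2, CON replicate 3 and 4H replicate 3). That of Psmb6 became 0.015 when rescaled to TPM and under quantile normalization, and ranged from -0.046 to 0.0077 without single libraries (0.0077 without CON replicate 3). That of Jak1 was 0.051 when rescaled to TPM. With single libraries left out it ranged from -0.0086 without CON replicate 1 to 0.042 without 4H replicate 2. It was -0.0061 without 4H replicate 3. That of Ifitm2 ranged from -0.28 without 4H replicate 1 to 0.048 without 4H replicate 2. The cause was not tested. By the replicate numbers of the sample descriptions, same-numbered libraries did not deviate together (correlations of 0.025, -0.093 and -0.126). By the titles, which number the 4H libraries 1, 3 and 4, only 2 numbers are shared (0.025 for number 1 and 0.176 for number 3, which is CON replicate 3 with 4H replicate 2), and a block by those was not run. The numbers were not taken to pair the libraries. With a replicate block by the description numbers 28 members fell, with a median log2 fold change of -0.40. Rigi, Trim25, Ifit1, Mx2 and Ifitm3 lost the call (adjusted p from 0.0508 to 0.0776), and Ifnar1, Parp9 and Xaf1 gained it (0.0383 to 0.0496). FPKM hides the depth, so genes below the filter, including the interferons and class II genes, could not be assessed.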
